A study of Mus musculus with 10 samples.

Results

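Stretches of the mouse genome that FAIRE-seq found open in primed epiblast cells (EpiSC), in neural stem cells (NSC) and in fibroblasts from embryos (MEF), but not in naive embryonic stem cells (ESC), are described here. Autosomal sites of the 4 lists, 1 per cell type, were merged wherever they shared at least 1 bp. This gave 1121520 regions, of which 22922 (2.04%) held sites of EpiSC, NSC and MEF and none of ESC. They are called EpiSC-NSC-MEF regions below. The regions were chosen by the presence or absence of sites in these same lists, so counts under the rule are a description, with no test.

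EpiSC were E3 cells expanded on mitomycin-treated fibroblast feeders in fibroblast-conditioned medium with 5 ng/ml FGF2, and then kept off the feeders on fibronectin for the last 2 days before crosslinking. NSC, neural progenitors of ES cell origin, grew in N2B27 medium with 10 ng/ml each of FGF2 and EGF. MEF came from E16.5 embryos and grew in medium with serum. ESC were E14 cells on gelatin in N2B27 medium with LIF at 1000 U/ml, a MEK inhibitor at 1 uM and a GSK3 inhibitor at 3 uM. The labels name 10 samples, 2 for each cell type and 2 of sheared genomic DNA; 1 list of sites per cell type was used, and the other 6 samples were not analysed here. The source label of the MEF samples reads mNSC, while title and cell type give fibroblasts. ESC and EpiSC are each a single line, and the labels do not say how many derivations stand behind NSC and MEF.

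FAIRE (formaldehyde-assisted isolation of regulatory elements) recovers DNA that nucleosomes hold loosely, which is typical of active promoters and enhancers. The ESC medium blocks MEK and so the FGF and ERK signals that push these cells out of the naive, or ground, state. EpiSC represent the later, primed state of the epiblast and depend on FGF and Activin signals, while NSC and MEF are committed somatic cells. EpiSC-NSC-MEF regions are thus open in the primed and both somatic cell types and unlisted in the naive one. Cell type and medium went together in this design and cannot be told apart. In such bulk cultures a region open in few cells and one weakly open in many cells cannot be told apart either.

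The lists held 387312 autosomal sites in EpiSC, 551649 in NSC, 424647 in MEF and 438802 in ESC. Each site carries a score given by the authors, whose unit and making are not stated, so scores are given here as percentiles within their own list. Read depth is unknown, and differences between cell types have no replicates behind them and no test. The 95% intervals of shares are exact (Clopper-Pearson) and cover the counting of regions alone. No genome or gene annotation of the build of these lists, mm9, was used, so regions are given by coordinates without genes or sequence.

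The EpiSC-NSC-MEF regions held 24477 EpiSC sites (6.32% of the autosomal list), 25518 NSC sites (4.63%) and 25347 MEF sites (5.97%). Of all regions with sites in these 3 cell types, 22922 of 68913 (33.3%, 95% interval 32.9 to 33.6) had no ESC site, and the remaining 45991 were open in all 4. Among all regions with an EpiSC site 55.6% had none of ESC, among those with an NSC site 75.1%, and among those with a MEF site 74.6%. The share of 33.3% was taken over wider regions than the others, and values by width are given further on.

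The same share was computed with each of the other cell types missing in turn. Regions of ESC, NSC and MEF lacked EpiSC in 27.2% of cases (26.9 to 27.6), and regions of ESC, EpiSC and MEF lacked NSC in 29.0% (28.7 to 29.4). Regions of ESC, EpiSC and NSC lacked MEF in 42.2% (41.8 to 42.5). The share for ESC thus stood above those for EpiSC and NSC and below that for MEF. The order changed with list length. With every list held at the 387312 highest scores, ESC was missing in 34.6%, EpiSC in 23.0%, NSC in 39.6% and MEF in 39.6%. With the upper 50% of EpiSC, NSC and MEF by score beside the whole ESC list, ESC had the lowest share, at 26.4%, against 32.1% for EpiSC, 34.1% for NSC and 46.6% for MEF. That setting cut every list except ESC, so a lower share for ESC follows in part from the setting itself. In regions 600 to 900 bp wide, ESC was missing in 48.0%, EpiSC in 39.9%, NSC in 40.0% and MEF in 53.7%.

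**Figure D1:**
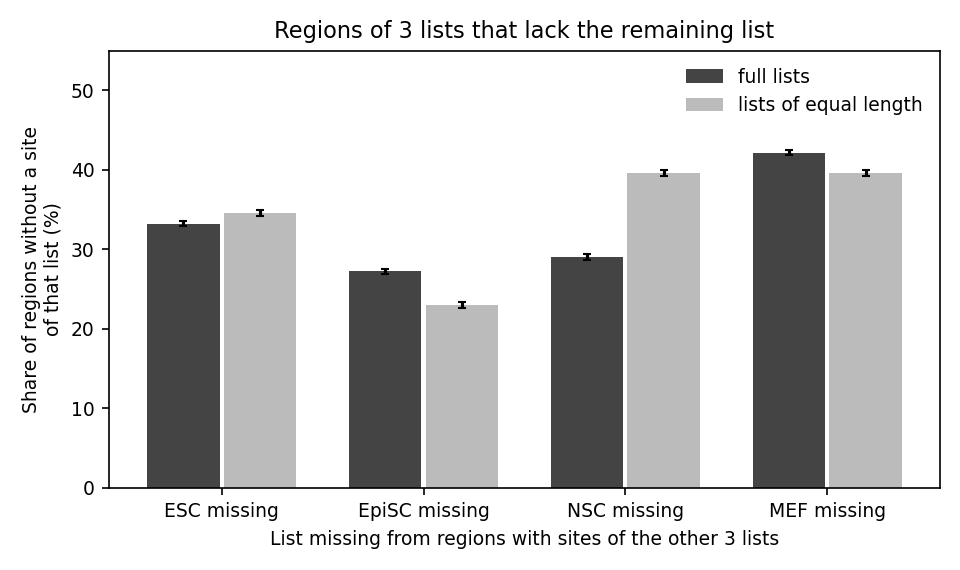
Share of regions with sites of 3 lists that lack the remaining list, in percent, with exact 95% intervals, for the full lists (dark) and for lists of equal length (light). ESC was missing in 33.3% of cases with full lists and 34.6% at equal length, between the shares for EpiSC and MEF both times, and the NSC share was 29.0% with full lists and 39.6% at equal length.

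EpiSC-NSC-MEF regions had a median width of 720 bp (quartiles 526 and 1014), against 1376 bp (878 and 2169) for regions open in all 4 cell types. The other 3 combinations of 3 lists had medians of 786 to 820.5 bp. Regions of 2 lists without ESC were narrower, at 477 bp (EpiSC and NSC), 471 bp (EpiSC and MEF) and 516 bp (NSC and MEF). Widths thus depend partly on the rule, since each list in a region adds its sites to the merged span. Together the EpiSC-NSC-MEF regions covered 19.5 Mb. Most, 18096 (78.9%, 78.4 to 79.5), held exactly 1 site of each of EpiSC, NSC and MEF. Of the regions open in all 4, 52.1% did so, whatever their number of ESC sites. More than 5 sites were seen in 360 EpiSC-NSC-MEF regions (1.57%), against 33.2% of the regions open in all 4, where ESC sites were counted too.

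In 18203 EpiSC-NSC-MEF regions (79.4%, 78.9 to 79.9) some bases lay in sites of all 3 cell types at once, and this common core had a median length of 164 bp (quartiles 103 and 239). Over all regions with EpiSC, NSC and MEF sites the share with a core was 82.5%. In 13889 (60.6%) the core was 100 bp or longer. The other 4719 (20.6%, 20.1 to 21.1) were joined only by a chain of overlaps. In 2292 of these, EpiSC and MEF shared no base and the NSC site bridged them; in 1328 the MEF site bridged EpiSC and NSC, and in 886 the EpiSC site bridged NSC and MEF. Such chains are open in all 3 cell types side by side rather than at the same bases.

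Where each cell type had a single site, the midpoints are bound to lie near each other, because the sites were merged by overlap. The median offset was 118 bp between EpiSC and NSC, 125 bp between EpiSC and MEF, and 123 bp between NSC and MEF. In regions open in all 4 with 1 site each it was 124.5 bp, 132 bp and 126.5 bp for the same pairs. EpiSC sites had a median width of 312 bp here, against 338 bp in their whole autosomal list. In the other combinations without ESC they were narrower, at 298 bp with NSC, 305 bp with MEF and 275 bp in EpiSC alone. In combinations with ESC their medians were 389 to 515 bp. NSC sites were wider than in their list (410 against 334 bp), and so were MEF sites (361 against 323 bp).

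The best EpiSC site of an EpiSC-NSC-MEF region stood at a median percentile of 56.7 of the EpiSC scores (quartiles 34.5 and 78.6). For NSC the median was 60.8 (33.4 and 83.6) and for MEF 56.8 (28.9 and 79.2). The medians thus lay somewhat above the middle of each list, with a wide spread. Regions open in all 4 cell types stood higher in each list, at 74.0, 67.3 and 60.0 in the same order. Somatic sites scored lower when ESC took the place of another cell type. NSC sites stood at 39.6 in regions of ESC, EpiSC and NSC and at 48.3 in regions of ESC, NSC and MEF, and MEF sites at 35.2 in regions of ESC, EpiSC and MEF and at 46.2 in regions of ESC, NSC and MEF. For EpiSC the corresponding medians, 54.6 and 54.8, were close to those of the EpiSC-NSC-MEF regions, though not at a fixed width, as given below.

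**Figure D2:**
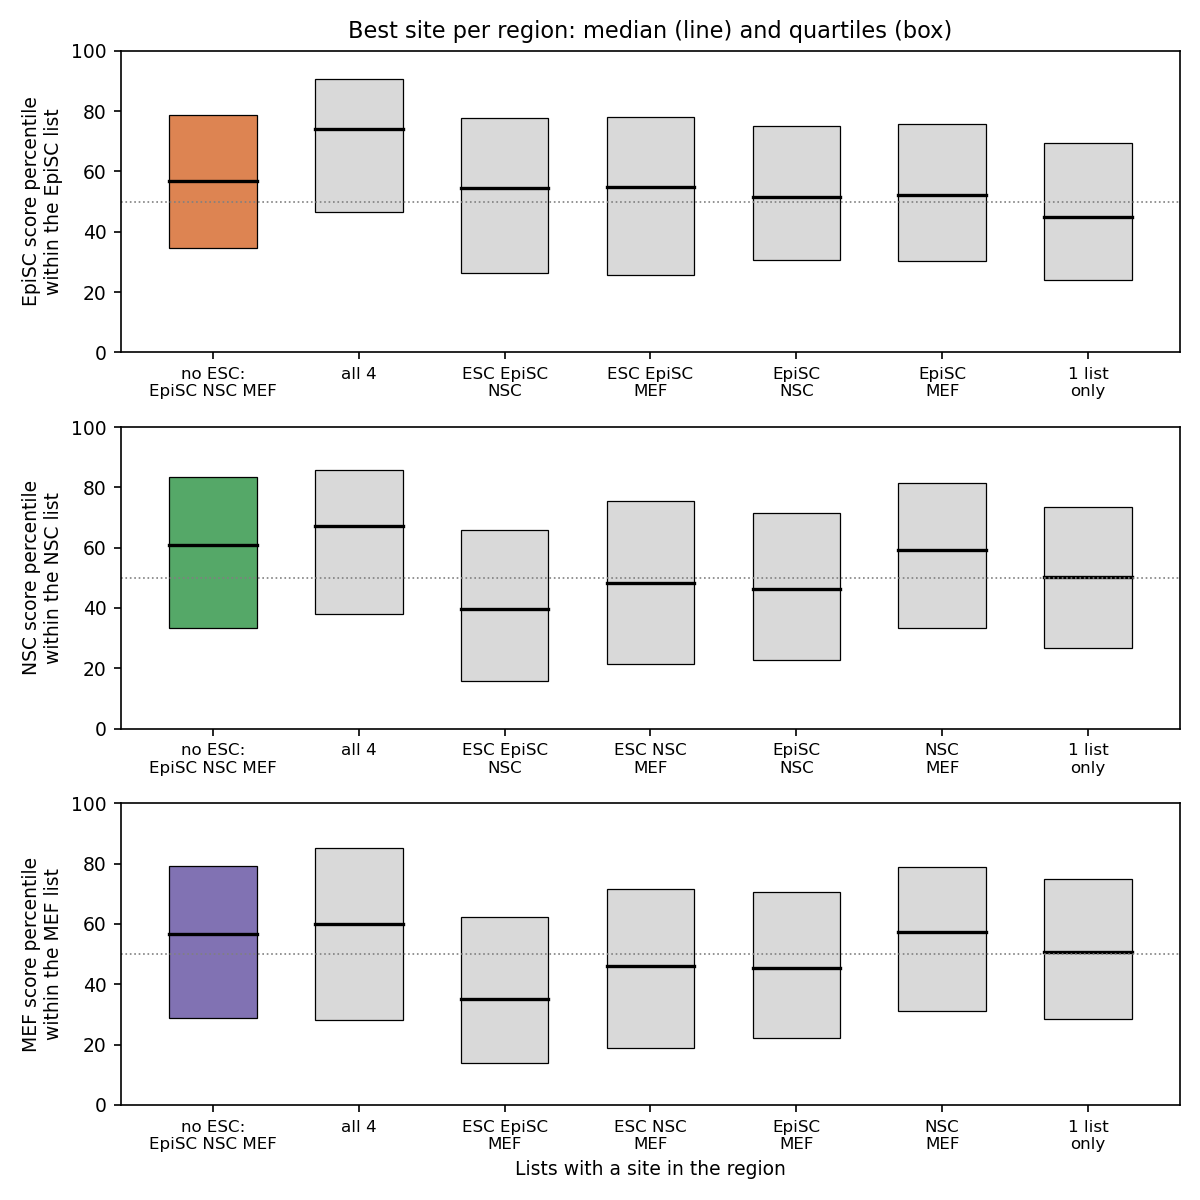
Score percentile, within its own list, of the best site per region for EpiSC (top), NSC (middle) and MEF (bottom), by the lists that have a site in the region; lines are medians and boxes span the quartiles. EpiSC-NSC-MEF regions (coloured) stood at medians of 56.7, 60.8 and 56.8, below regions open in all 4 and, for NSC and MEF, above the other combinations with ESC.

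The comparison was repeated over all sites in place of the best site per region. The median percentiles in EpiSC-NSC-MEF regions and in regions open in all 4 were then 55.1 and 66.4 for EpiSC sites, 58.3 and 59.4 for NSC sites, and 54.8 and 52.9 for MEF sites. The best site of a region open in all 4 is drawn from more sites. Among sites of 250 to 350 bp the median percentile of EpiSC sites was 50.2 in EpiSC-NSC-MEF regions and 47.6 in regions open in all 4. For NSC sites it was 45.1 and 34.7, and for MEF sites 42.6 and 33.9. At this width sites of EpiSC-NSC-MEF regions stood higher in all 3 lists, as MEF sites already did over all widths. EpiSC sites of this width stood at 41.7 in regions of ESC, EpiSC and NSC and at 40.7 in regions of ESC, EpiSC and MEF. NSC and MEF sites of regions open only in these 2 cell types stood higher still, at 50.9 and 49.2. NSC sites of no other list stood at 45.2 and MEF sites of no other list at 44.7, close to the values in EpiSC-NSC-MEF regions.

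Scores in different cell types were only weakly related. Across the 22922 EpiSC-NSC-MEF regions the Spearman correlation of best percentiles was 0.28 between EpiSC and NSC, 0.23 between EpiSC and MEF and 0.31 between NSC and MEF. In the 45991 regions open in all 4 it was 0.34, 0.31 and 0.40. These values describe regions of the same libraries, not replicates. All 3 best sites lay above the median of their list in 6064 EpiSC-NSC-MEF regions (26.5%, 25.9 to 27.0), against 37.3% of regions open in all 4. All 3 lay in the top 10% in 273 (1.19%, 1.05 to 1.34), against 4.14%. In 3019 regions (13.2%) all 3 lay in the lower part of their list, at or below the median. The EpiSC had grown on fibroblast feeders, and whether remaining feeder chromatin adds to EpiSC sites here was not tested.

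The lack of ESC sites varied with the EpiSC score. Regions with EpiSC, NSC and MEF sites were put into 5 equal groups by their best EpiSC percentile. From the lowest group to the highest, 40.3%, 45.9%, 35.2%, 27.7% and 17.2% held no ESC site. For NSC the shares were 35.8%, 36.4%, 35.8%, 26.2% and 32.1%, with no steady course, and for MEF they were 30.6%, 39.2%, 36.2%, 33.5% and 26.8%. Width moved with these shares: from the narrowest to the widest group they were 64.9%, 46.9%, 32.5%, 16.4% and 5.60%. This is the width of the merged region, to which an ESC site adds its own span. Part of this course thus follows from the merging rule. Among regions of 600 to 900 bp the group with the highest EpiSC scores still had the lowest share without ESC, at 36.6%, against 48.3% to 56.1% in the other 4. At this width the groups with the lowest somatic scores had the lowest shares. For NSC the share was 42.9% in the lowest group and 47.4% to 50.9% in the other 4, and for MEF it was 40.8% in the lowest and 48.4% to 51.7% in the other 4. The width limit applies to the merged region, ESC sites included. It thus does not hold the widths of the EpiSC, NSC and MEF sites fixed, and no conclusion is drawn from these differences.

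The absence of an overlapping ESC site did not mean that ESC was closed all around. The nearest ESC site lay at a median of 1937 bp (quartiles 669 and 5748), and 7727 EpiSC-NSC-MEF regions (33.7%, 33.1 to 34.3) lay within 1 kb of one. Over all regions without an ESC site that share was 26.1%. In 11621 (50.7%) the distance was 1 to 10 kb, in 3154 (13.8%) 10 to 50 kb, and in 420 (1.83%) 50 kb or more. The ESC sites next to those within 1 kb stood at a median percentile of 48.8 of the ESC scores, close to the middle of that list.

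Distance to ESC followed the presence of EpiSC more than the number of cell types. EpiSC-NSC-MEF regions, regions of EpiSC and NSC (median 1910 bp), regions of EpiSC and MEF (2084 bp) and regions of EpiSC alone (1847 bp) lay at similar distances. Regions of NSC and MEF lay farther off (3473 bp), as did those of NSC alone (3772 bp) and of MEF alone (4352 bp). Set beside other regions that lack a single list, EpiSC-NSC-MEF regions lay farther from the missing one. The share within 1 kb was 33.7% for ESC, 41.7% where EpiSC was missing, 39.8% where NSC was missing and 35.8% where MEF was missing.

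**Figure D3:**
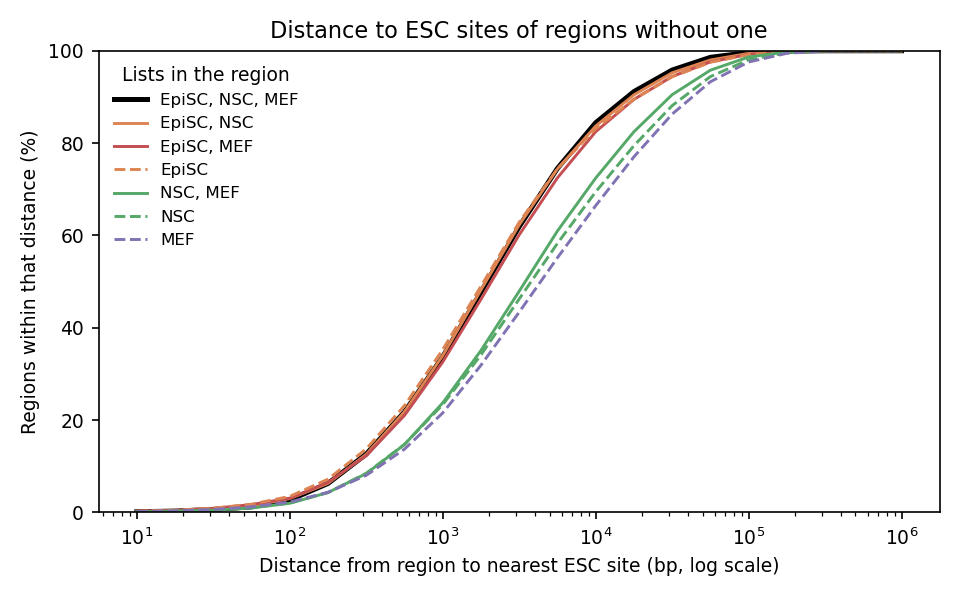
Cumulative share of regions without an ESC site, in percent, by distance to the nearest ESC site in bp on a log scale, for each combination of EpiSC, NSC and MEF. EpiSC-NSC-MEF regions (black) run with the other regions that hold an EpiSC site, with 33.7% within 1 kb; regions of NSC, of MEF and of both lie farther away, with 21.6% to 23.7% within 1 kb.

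At the edge of the rule, 238 EpiSC-NSC-MEF regions (1.04%) ended less than 50 bp from an ESC site. Their median percentiles were 52.2 in EpiSC, 56.8 in NSC and 55.7 in MEF. Just outside it, 138 regions open in all 4 (0.300%) owed their ESC site to an overlap of 50 bp or less, and stood at 55.6, 56.0 and 49.6. Of the 38676 regions open in all 4 that had a core common to EpiSC, NSC and MEF, 3819 (9.87%, 9.58 to 10.2) had no ESC base in any core. In those the ESC site lay beside the bases shared by the other cell types.

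EpiSC-NSC-MEF regions far from ESC had common cores about as often as near ones. A core was present in 81.0% (76.9 to 84.6) of those 50 kb or more away and in 80.8% (79.9 to 81.7) of those within 1 kb of an ESC site, with median core lengths of 152.5 and 167 bp. Median percentiles of the far and the near regions were 60.7 and 56.6 in EpiSC, 64.3 and 57.2 in NSC, and 61.6 and 54.8 in MEF. The far regions were narrower, with a median width of 606.5 bp against 720 bp.

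The 5 EpiSC-NSC-MEF regions with the highest scores were those with the highest value of the lowest of their 3 percentiles, among regions with a core of 100 bp or more outside chromosome 18. The first lay on chromosome 7 from 143341733 to 143344609, with a core of 171 bp at 143344387 to 143344557. It stood at percentiles of 99.6 in EpiSC (score 13.8), 99.7 in NSC (20.9) and 99.6 in MEF (13.6), and an ESC site lay 703 bp away. Its NSC site alone spanned 2861 bp, while the EpiSC site over the core spanned 171 bp.

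The second, on chromosome 14 from 97985282 to 97986802, was isolated from ESC, with the nearest site 40307 bp off. The EpiSC site (256 bp, score 12.7) and the MEF site (245 bp, score 15.99) almost coincided within an NSC site of 1521 bp (score 21.8). The surroundings were dense in NSC: 68 NSC sites lay in the same 100-kb window, with 9 of EpiSC, 14 of MEF and 4 of ESC.

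The third, on chromosome 14 from 73634979 to 73635570, had EpiSC, NSC and MEF sites of 456, 569 and 316 bp with a common core of 298 bp. Its EpiSC score of 21.4 was the highest of the 5. The fourth, on chromosome 7 from 105737277 to 105738012, had the highest NSC score of the 5 (26.1), with 12.4 in EpiSC and 14.2 in MEF. The fifth, on chromosome 13 from 21874055 to 21874853, scored 11.99 in EpiSC, 18.96 in NSC and 14.62 in MEF. ESC sites lay 347, 626 and 360 bp from these 3. Beside the fifth they were strong, with a site of percentile 99.2 that began 810 bp from the centre of the core; beside the third the nearest stood at 26.8 and beside the fourth at 9.7. Thus 4 of these 5 had ESC sites within 1 kb, against 33.7% of all EpiSC-NSC-MEF regions. These 5 do not stand for the rest. Over all EpiSC-NSC-MEF regions, median percentiles were lower within 1 kb of ESC than at 50 kb or more, as given above.

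**Figure D4:**
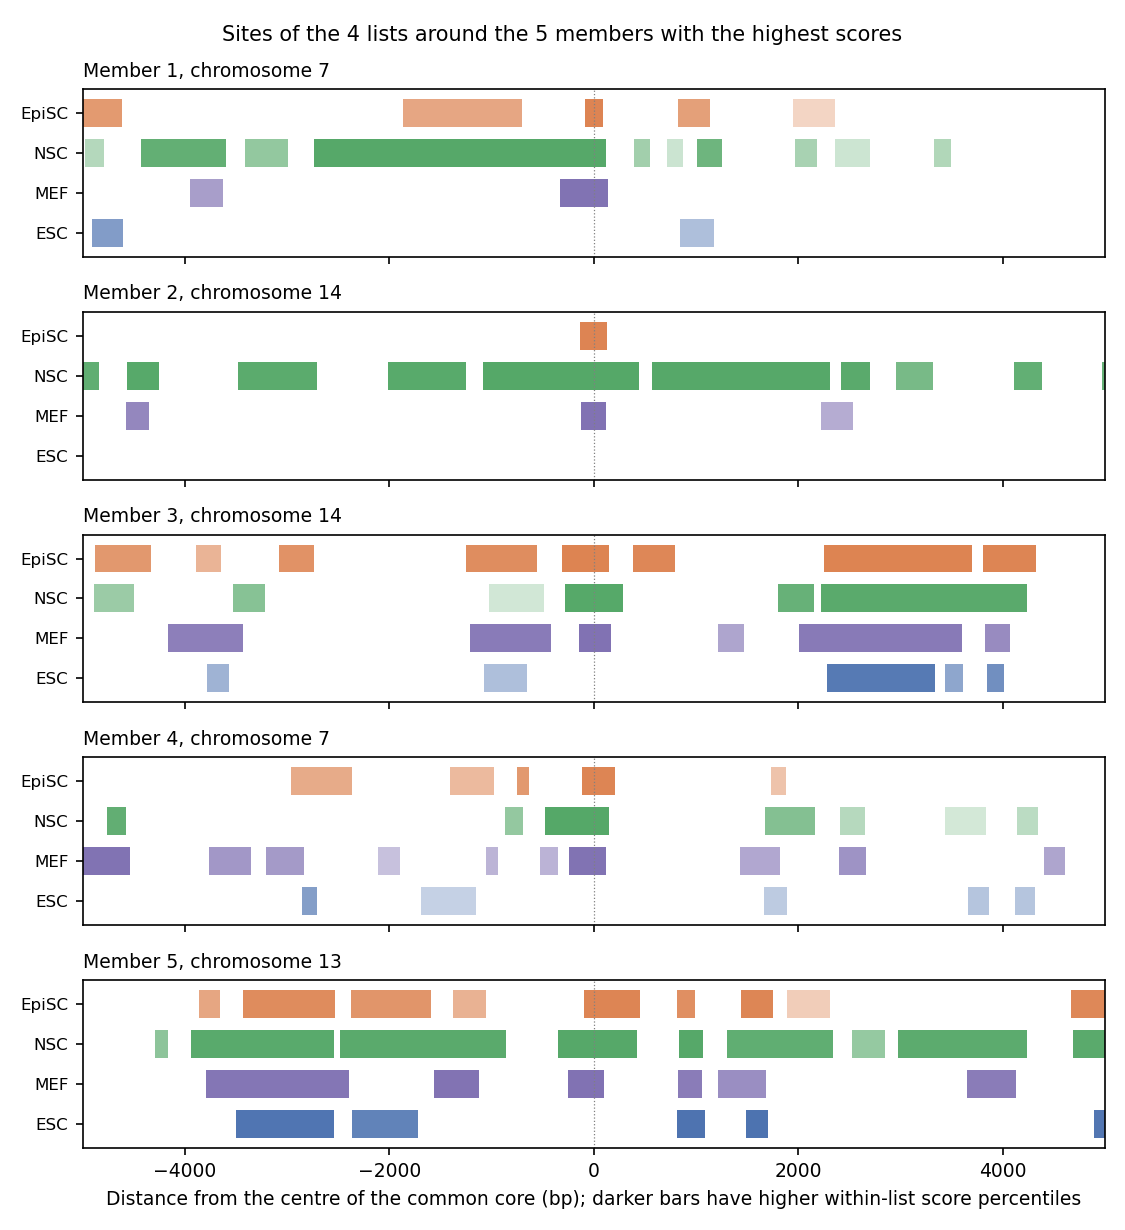
Sites of EpiSC, NSC, MEF and ESC (bars, darker for higher score percentile within the list) up to 5 kb on either side of the core common to EpiSC, NSC and MEF, for the 5 EpiSC-NSC-MEF regions with the highest scores; the x axis is the distance from the core centre in bp. All 5 centres lack ESC; the ESC row is empty only for the second, and the other 4 hold 2 to 5 ESC sites within 5 kb.

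The longest common cores differed in score. The longest, 1567 bp, lay on chromosome 4 at 132572003 to 132573569, in a region with best percentiles of 51.0 in EpiSC, 75.5 in NSC and 64.6 in MEF. The sites that form this core stood at 8.8 in EpiSC, 75.5 in NSC and 43.9 in MEF; the best EpiSC and MEF sites lay beside it. The next were 1487 bp on chromosome 10 (79533411 to 79534897; 47.4, 46.1 and 50.6) and 1293 bp on chromosome 9 (121240444 to 121241736; 86.2, 89.3 and 66.6). Their surroundings were rich in ESC sites, with 68, 34 and 58 of them in the 100-kb window, and the nearest lay 687, 1118 and 758 bp away. These wide openings thus lacked ESC sites within stretches otherwise dense in them.

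The 3 regions farthest from any ESC site all lay on chromosome 19. The farthest, from 52423007 to 52423660, was 269086 bp from ESC and stood at 70.3 in EpiSC, 33.4 in NSC and 97.7 in MEF. The next, from 51024508 to 51024966, was 248926 bp from ESC, with 90.8, 94.5 and 68.9. The third, from 49706287 to 49706736, was 241535 bp from ESC, with 98.5, 93.8 and 79.1. Their cores were 89, 134 and 91 bp long, and their 100-kb windows held no ESC site. EpiSC sites in these windows numbered 1, 3 and 23.

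EpiSC-NSC-MEF regions were spread widely: 11236 of the 24731 windows of 100 kb (45.4%) held at least 1. Windows with 5 or more numbered 773 and held 4735 of the regions (20.7%). Another EpiSC-NSC-MEF region lay within 10 kb for 35.96% (35.3 to 36.6). That share was 35.1% for the regions lacking NSC, 32.4% for those lacking EpiSC and 50.9% for those lacking MEF, which are also more numerous. Only 446 (1.95%, 1.77 to 2.13) lay in a 100-kb window with no ESC site, against 5.82% of all regions without an ESC site. In regions of NSC and MEF alone this share was 5.16%. It was lower in the other regions with EpiSC, at 3.05% for EpiSC alone, 2.86% for EpiSC and MEF and 2.54% for EpiSC and NSC.

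The windows with the most EpiSC-NSC-MEF regions differed in their ESC content. Chromosome 4 from 63600001 to 63700000 held 14, beside 11 regions open in all 4, with 38 EpiSC, 75 NSC, 61 MEF and 19 ESC sites. MEF scores were high there, with a median percentile of 94.2 over the 14, against 82.8 in NSC and 53.8 in EpiSC. Chromosome 11 from 111500001 to 111600000 also held 14 and no region open in all 4, with 20 EpiSC, 68 NSC, 35 MEF and 2 ESC sites. Its median percentiles were 68.1 in EpiSC, 67.4 in NSC and 58.9 in MEF. Chromosome 2 from 44900001 to 45000000 held 13, with 8 regions open in all 4 and 17 ESC sites. In it EpiSC stood highest, at 74.1, against 60.6 in NSC and 43.6 in MEF.

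Stretches between neighbouring ESC sites were examined in the same way. The stretch around an EpiSC-NSC-MEF region had a median length of 11054 bp, while the median of all 438783 stretches was 1328 bp; long stretches have more room. Stretches of 20 kb or more made up 51.2% of the length between ESC sites and held 32.9% of the EpiSC-NSC-MEF regions. A stretch held a single such region in most cases, and 2867 of 18812 held 2 or more.

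The stretch with the most EpiSC-NSC-MEF regions lay on chromosome 19 from 50260023 to 50551278. Its 291256 bp held 17, with 59 EpiSC, 173 NSC and 91 MEF sites and no ESC site, and 15 of the 17 had a common core. Median percentiles of the 17 were 73.1 in EpiSC, 80.5 in NSC and 65.0 in MEF. Next came chromosome 1 from 82069948 to 82164268 and chromosome 2 from 147968001 to 148098703, with 11 each. On chromosome 1 the medians were 58.7 in EpiSC, 90.3 in NSC and 83.0 in MEF, and on chromosome 2 they were 34.2, 73.0 and 83.0. Somatic sites thus ranked higher than EpiSC sites on chromosomes 1 and 2, whereas all 3 cell types ranked high in the chromosome 19 stretch.

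Chromosomes differed in how often regions with EpiSC, NSC and MEF sites lacked ESC. The share was highest on chromosome 3 (41.5%, 39.9 to 43.1), followed by chromosome 18 (40.2%) and chromosome 14 (39.4%). It was lowest on chromosome 8 (22.9%, 21.5 to 24.3), followed by chromosome 7 (24.0%) and chromosome 11 (26.9%). Chromosomes 8 and 11 had the densest ESC sites, at 1.47 and 1.499 times the autosomal median, and chromosome 3 the sparsest, at 0.75 times. Across the 19 autosomes the Spearman correlation of the share with ESC density was -0.88, and with EpiSC, NSC and MEF density it was -0.57, 0.25 and -0.27; the chromosomes share libraries and ESC sites enter both measures. Chromosome 7 stood apart, with a low share at an ESC density of 1.02 times the median and an EpiSC density of 0.76 times. By number per Mb, EpiSC-NSC-MEF regions were densest on chromosome 11 (13.5 per Mb) and sparsest on chromosome 7 (5.93 per Mb), whatever the share.

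**Figure D5:**
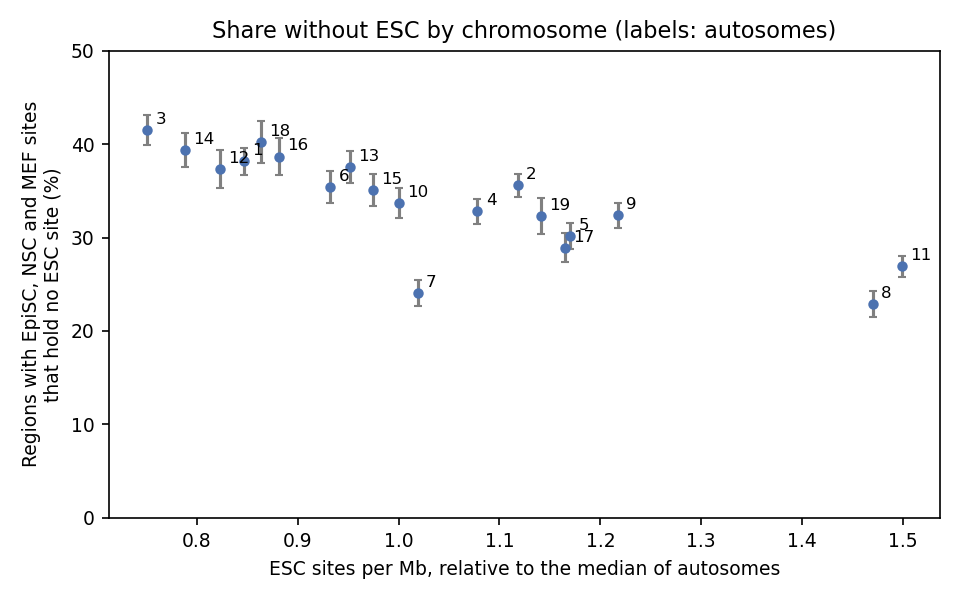
Share of regions with EpiSC, NSC and MEF sites that hold no ESC site, in percent with exact 95% intervals, against the density of ESC sites relative to the median of autosomes; each point is 1 autosome, labelled by number. Shares run from 41.5% on chromosome 3 to 22.9% on chromosome 8, and chromosome 7 lies below other chromosomes of its ESC density, at 24.0%.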

How the data were processed

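FAIRE-seq site lists of EpiSC, NSC, MEF and ESC (replicate 2 of each by their labels) were analysed. The submitters' processing notes name CASAVA 1.8 and build mm9; caller, thresholds, use of the control and pooling are not stated there. The deposited score of each site was used by its percentile within its own list only; a deposited display value, about 100 times the score and capped at 1000, was not used. Lists were read as 0-based intervals and coordinates are printed 1-based.

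Regions, common cores and distances were computed in Python 3.11.15 (numpy 2.4.6, pandas 2.3.3, scipy 1.17.1; figures with matplotlib 3.10.9). Merging was checked against bedtools 2.31.1, with identical counts, and tested on simulated data. Depth is unknown. Planned GC and motif counts were not run. The members and lists were chosen with earlier results of these data known. Regions were named by rank, outside chromosome 18: the 5 with the highest lowest percentile (core of 100 bp or more), the 3 longest cores, the 3 farthest from ESC, and the 3 windows of 100 kb and 3 ESC-free stretches with the most. The fixed widths, the groups by score and the 50-bp edge were chosen after the data were seen. Alternatives were other overlap, merging, score and list-length settings and left-out chromosomes.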

Additional observations from a re-analysis of the deposited data

Results flagged for a closer look

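The X chromosome lay outside the rule. The EpiSC list held 0 of its sites, so it held no EpiSC-NSC-MEF region, while NSC had 4219, MEF 7244 and ESC 2992. On it 553 regions held NSC and MEF sites and no ESC site, and 288 held sites of NSC, MEF and ESC. On the autosomes, regions with NSC and MEF sites and no ESC site numbered 71554 without EpiSC and 22922 with EpiSC. Those with NSC, MEF and ESC sites numbered 17213 without EpiSC and 45991 with EpiSC. The X counts come from data not used for the comparisons, with no control list beside them, and no difference from the autosomes was tested.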

How the results depend on the processing

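Of 92 values recomputed under 13 alternatives, 46 stayed within the 95% interval of the value reported (within 1.5 times for the number of regions) and 46 moved. One alternative, a common core free of ESC bases, was chosen after seeing the data; the rest were planned. No paired analysis was possible because a single list stood for each cell type, and for the same reason no replicate was left out. Depth is unknown and limits every comparison of list lengths. Fewer sites or a stricter rule change some values by construction; otherwise the cause was not tested.

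The number of EpiSC-NSC-MEF regions was 7799 with the upper 50% of each list by score, 6081 with the upper 50% of EpiSC, NSC and MEF against the whole ESC list, and 15195 with no ESC site within 1 kb. The share of regions with EpiSC, NSC and MEF sites that lacked ESC was 32.3% with an overlap of 50% of the shorter site, 33.9% with the upper 50% of each list, 34.6% with lists of equal length, 26.4% with the whole ESC list against the upper 50% of the others, and 32.2% when sites under 200 bp apart were merged. It was 32.0% with a common core required, 22.1% with no ESC site within 1 kb and 33.8% without chromosome 8. The alternative of cores free of ESC bases gave a different measure, 38.7% of the 56879 regions with a common core. It counts in the 3819 regions open in all 4 that had no ESC base in any core.

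The share with a common core was 89.7% with the overlap of 50%, 78.7% with lists of equal length, 61.0% with merging under 200 bp and 78.7% with no ESC site within 1 kb. The median distance to ESC and the share within 1 kb were 1721.5 bp and 37.5% with the overlap of 50%, 4260 bp and 21.1% with the upper 50% of each list, and 2302 bp and 30.4% with lists of equal length. They were 2180 bp and 31.9% with the whole ESC list, 2549 bp and 25.2% with merging under 200 bp, and the distance was 3912 bp with no ESC site within 1 kb.

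The share in windows without ESC was 6.16% in windows of 50 kb, 0.297% in windows of 200 kb, 7.89% with the upper 50% of each list, 2.32% with lists of equal length and also with the whole ESC list, 2.35% with merging under 200 bp and 2.94% with no ESC site within 1 kb. Median percentiles, taken within the sites kept, were 65.0 in NSC and 58.5 in MEF with the upper 50% of each list, 61.7 in EpiSC and 59.2 in MEF with lists of equal length, and 58.5 in EpiSC, 65.6 in NSC and 58.7 in MEF with the whole ESC list. They were 61.9 in NSC and 58.5 in MEF with merging under 200 bp, 57.9 in EpiSC with a common core required, and 62.5 in NSC and 57.8 in MEF with no ESC site within 1 kb.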

Other observations

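The 420 EpiSC-NSC-MEF regions 50 kb or more from any ESC site were unevenly spread over the autosomes. They made up 1.83% of EpiSC-NSC-MEF regions overall. On chromosome 19 they were 39 of 745 (5.23%, 95% interval 3.75 to 7.09), on chromosome 15 they were 50 of 1132 (4.42%, 3.30 to 5.78) and on chromosome 16 they were 35 of 893 (3.92%, 2.74 to 5.41). On chromosome 17 they were 6 of 913 (0.657%, 0.242 to 1.42) and on chromosome 8 they were 6 of 804 (0.746%, 0.274 to 1.62). Regions in the same ESC-free stretch are not independent, and the intervals take no account of this. On chromosome 19 a single stretch held 17 EpiSC-NSC-MEF regions, at a median of 73410 bp from ESC. Other regions without an ESC site were not compared by chromosome.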
